A study of Homo sapiens with 6 samples.

Results

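CFPAC cells that received siRNA against NEK7 were compared with CFPAC cells that received a control siRNA, across all genes that reached 1 FPKM in either library. FPKM is the number of sequenced fragments scaled to gene length and library size, so it can be compared between genes of different length. By this rule 12679 of 33097 gene records were members. Of these, 12062 passed with NEK7 siRNA and 12039 with control siRNA, 640 passed with NEK7 siRNA alone, and 617 with control siRNA alone. Just inside the line stood ZFYVE28, with 1.0001 FPKM with NEK7 siRNA and 0.815 FPKM with control siRNA, and just outside stood C12orf66, with 0.9998 FPKM with NEK7 siRNA and 0.638 FPKM with control siRNA.

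CFPAC and KP3 are established human lines of pancreatic cancer. The series holds 6 RNA-seq libraries, 1 for each line after NEK7, NEK6 or control siRNA, prepared with oligo(dT) beads from 5 ug of RNA each. The control libraries are control siRNA by title, while their genotype and treatment tags read WT. No second library was analysed for any condition. Values are therefore described without a test, and a difference between a pair of libraries cannot be told apart from the spread that repeat cultures would show. The siRNA sequences, the number of siRNAs for each target, the dose and the time of harvest are not given in the sources used here.

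NEK7 is a small serine/threonine kinase of the NIMA family. It acts at the centrosome and spindle in dividing cells together with its close relative NEK6, downstream of NEK9. Apart from its kinase activity it binds the sensor NLRP3 and licenses assembly of the inflammasome, the complex through which caspase-1 matures interleukin-1 beta and interleukin-18 and cleaves gasdermin D in pyroptosis. That second role is known best from macrophages, and epithelial cancer cells often carry few of its parts.

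The libraries held 59478910 to 66067379 counts. Epithelial markers fitted the label of CFPAC. KRT19 stood at 335, 396 and 393 FPKM with NEK7, NEK6 and control siRNA, and 7, 9 and 8 of the 10 measured duct markers passed 1 FPKM. CLDN4, a tight junction claudin, was high with NEK6 siRNA alone, at 0.0323, 27.3 and 0.197 FPKM. Summed fibroblast markers stood at 163, 153 and 111 FPKM, almost all of it LUM with 143, 137 and 96.8 FPKM, while PDGFRA stayed under 0.12 FPKM. Summed leukocyte markers stood at 81.9, 85.3 and 56.1 FPKM, most of it the lysosomal protein CD68, with PTPRC at 0 FPKM after NEK7 and control siRNA and 0.0420 FPKM after NEK6 siRNA. The acinar and endocrine sums were below 0.3 FPKM, as was the endothelial sum. The part of these shifts in the results was not tested. In bulk RNA, fewer cells of a type and less RNA per cell cannot be told apart.

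The targeted transcript was low in its own library. NEK7 had 2.40 FPKM with NEK7 siRNA, against 17.97 FPKM with NEK6 siRNA and 14.8 FPKM with control siRNA in CFPAC. In KP3 it had 5.79 FPKM with NEK7 siRNA, against 12.4 FPKM with NEK6 siRNA and 14.7 FPKM with control siRNA. The CFPAC count ratio of NEK7 siRNA over control, each scaled to its library total, was 0.162 with an exact 95% interval of 0.151 to 0.173. Such intervals, here and later, cover counting error only. NEK6 itself stood at 14.2 FPKM with NEK7 siRNA, against 4.09 FPKM with NEK6 siRNA and 15.2 FPKM with control siRNA, and its activator NEK9 stood at 7.65, 8.08 and 6.93 FPKM in that order. Among the 8 members of the NEK kinase family, NEK4 was the other one at least 1.5-fold lower, with 0.715 FPKM with NEK7 siRNA, 1.71 FPKM with NEK6 siRNA and 1.68 FPKM with control siRNA.

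A gene was called different between a pair of libraries when log2(FPKM + 1) differed by at least 1, a 2-fold change that understates the change of genes near the filter. With NEK7 siRNA 180 members (1.42%) were at least 2-fold higher than with control siRNA and 214 (1.69%) at least 2-fold lower, 394 in all (3.11%). Of these, 17 were at least 4-fold higher and 27 at least 4-fold lower. At 1.5-fold the numbers were 634 higher (5%) and 658 lower (5.19%). The median difference of all members was 0.04 with an SD over genes of 0.41. RTL8C lay just inside the 2-fold line, with 64.1 FPKM with NEK7 siRNA and 31.5 FPKM with control siRNA. KIAA1191 lay just outside it, with 14.6 FPKM with NEK7 siRNA and 30.1 FPKM with control siRNA.

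The NEK6 siRNA library divides these genes, because it comes from the same cell line after an siRNA with another target. The NEK7 siRNA library stood at least 2-fold from both of the others, the same way, in 51 higher genes (0.402%) and 72 lower genes (0.568%). The control library alone stood apart in another 67 higher genes (0.528%) and 61 lower genes (0.481%): there both NEK siRNA libraries differed at least 2-fold from control the same way and by under 1.5-fold from each other. The remaining 62 higher and 81 lower genes lay between these classes. Both differences to control use the same control library, so an unusual value in that library enters both.

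**Figure D1:**
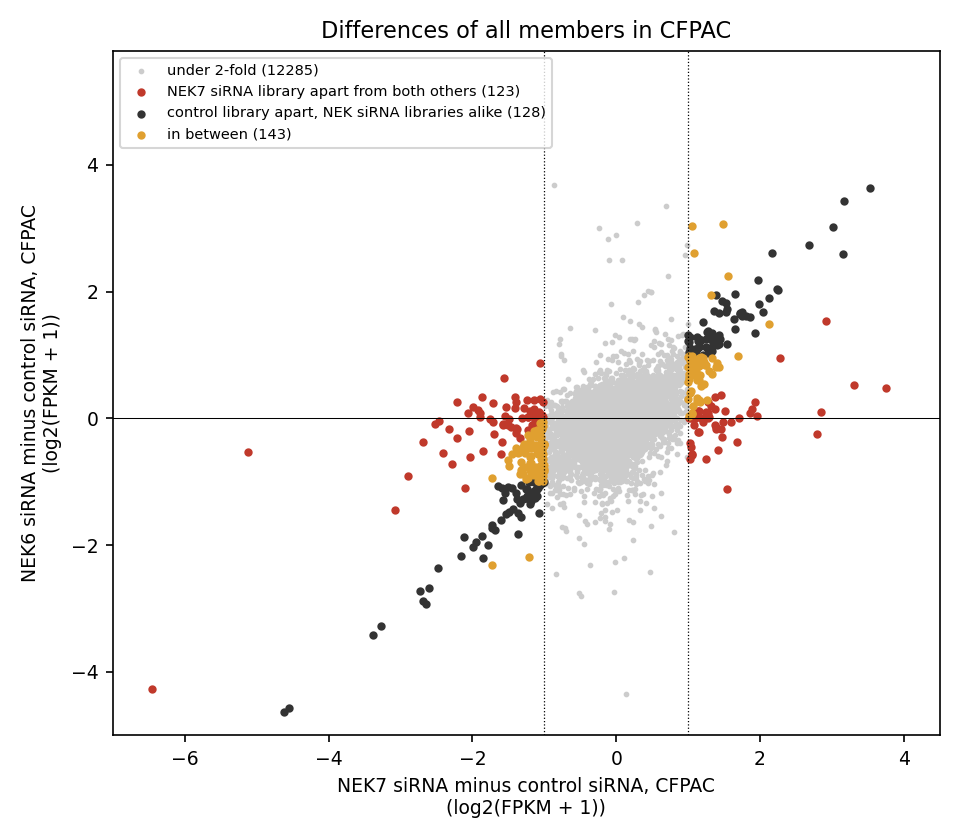
Each point is 1 of the 12679 members, placed by its difference of log2(FPKM + 1) between NEK7 siRNA and control siRNA (horizontal) and between NEK6 siRNA and control siRNA (vertical) in CFPAC; dotted lines mark 2-fold. The 123 genes with the NEK7 siRNA library apart lie off the diagonal, since their 2 differences are at least 2-fold apart, and the 128 genes with the control library apart lie along the diagonal, where both differences share the control value.

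The same count was taken for every library of each line, asking in how many genes it alone stood at least 2-fold from both others while those differed by under 1.5-fold. In CFPAC the NEK7 siRNA library was alone on top in 46 genes and alone at the bottom in 64, the NEK6 siRNA library in 56 and 61, and the control library in 61 and 67, of 12964 genes with 1 FPKM in any of the 3. In KP3 the numbers were 63 and 57 for NEK7 siRNA, 81 and 65 for NEK6 siRNA, and 57 and 44 for control siRNA, of 12822 genes. The NEK7 siRNA library of CFPAC thus had the smallest number of genes on top among the 6 libraries, and over all libraries and both directions the counts ran from 44 to 81. With protein-coding genes of at least 100 counts alone, the CFPAC numbers were 26 on top and 34 at the bottom for NEK7 siRNA, 12 and 46 for NEK6 siRNA, and 22 and 50 for control siRNA.

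**Figure D2:**
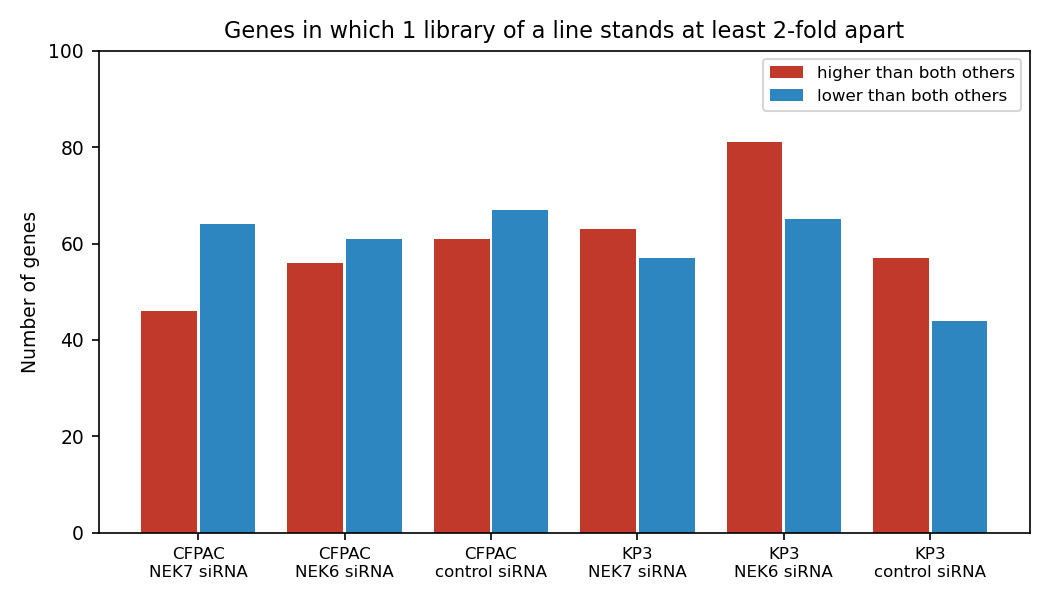
Number of genes in which a library stood at least 2-fold above (red) or below (blue) both other libraries of its line, which differed from each other by under 1.5-fold. Bars for the CFPAC NEK7 siRNA library reach 46 and 64 genes, and those of the other 5 libraries lie between 44 and 81.

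In each direction, 10 genes were named from the class in which the NEK7 siRNA library stood apart, ranked by the smaller of the differences to control and to NEK6 siRNA. The higher ones are given first. JPT2, which binds the calcium-releasing messenger NAADP, had 27.6 FPKM with NEK7 siRNA, against 7.39 FPKM with NEK6 siRNA and 6.91 FPKM with control siRNA. The count ratio over control was 4.01 (95% interval 3.83 to 4.19). CDC42SE2, a small effector of the GTPase CDC42, had 17.2 FPKM with NEK7 siRNA, 3.39 FPKM with NEK6 siRNA and 4.69 FPKM with control siRNA. CAB39, the scaffold that activates the kinase LKB1, had 28.2 FPKM with NEK7 siRNA, against 10.1 FPKM with NEK6 siRNA and 9.23 FPKM with control siRNA. For each of these 3 genes the NEK6 siRNA and control libraries lay near each other and far below the NEK7 siRNA library. CTNND1, the p120 catenin that holds cadherins at the cell surface, had 32.9 FPKM with NEK7 siRNA, 11.2 FPKM with NEK6 siRNA and 12.1 FPKM with control siRNA. HOXA3, a homeobox factor, had 5.32 FPKM with NEK7 siRNA, 1.18 FPKM with NEK6 siRNA and 1.27 FPKM with control siRNA. MYEOV, named for its high expression in myeloma, had 31.7 FPKM with NEK7 siRNA, 10.1 FPKM with NEK6 siRNA and 11.4 FPKM with control siRNA. NBL1, a secreted antagonist of bone morphogenetic proteins, had 128 FPKM with NEK7 siRNA, 36.9 FPKM with NEK6 siRNA and 45.6 FPKM with control siRNA. It shares exons with MICOS10, whose count ratio over control was 1.02, and the sum of both records had a ratio of 2.36. The histamine receptor HRH1 had 4.15 FPKM with NEK7 siRNA, 1.06 FPKM with NEK6 siRNA and 0.0640 FPKM with control siRNA, so it was also above control with NEK6 siRNA. Its count ratio of NEK7 siRNA over control was 64.3, with a wide interval of 43.4 to 99.6 from 25 counts in the control library. The other pair were RAB43 and the Src family kinase YES1, with differences to control of 2.85 and 1.92 on the log2(FPKM + 1) scale.

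RAB43, a Rab GTPase of membrane traffic, had the largest difference of these 10 genes on the log2(FPKM + 1) scale but a shared gene model. It had 13.6 FPKM with NEK7 siRNA, against 1.18 FPKM with NEK6 siRNA and 1.03 FPKM with control siRNA, a count ratio over control of 13.2. The read-through record ISY1-RAB43, which holds the same exons, had 940 counts with NEK7 siRNA, 1817 with NEK6 siRNA and 3067 with control siRNA. Summed over both records, RAB43 exons had 6065 counts with NEK7 siRNA, 2266 with NEK6 siRNA and 3427 with control siRNA, a ratio over control of 1.64. The level of RAB43 by itself is uncertain for this reason.

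Among the lower genes, PRNP, the cell-surface prion protein, had 12.5 FPKM with NEK7 siRNA, against 71.7 FPKM with NEK6 siRNA and 73.7 FPKM with control siRNA. Its count ratio over control was 0.17 (95% interval 0.163 to 0.177), close to the 0.162 of NEK7 itself. SUDS3, a subunit of the SIN3A histone deacetylase corepressor, had 1.77 FPKM with NEK7 siRNA, 11.3 FPKM with NEK6 siRNA and 10.6 FPKM with control siRNA, a count ratio of 0.168 (0.155 to 0.182). AIDA, which binds axin, had 2.49 FPKM with NEK7 siRNA, 16.3 FPKM with NEK6 siRNA and 21.5 FPKM with control siRNA, a count ratio of 0.116 (0.108 to 0.125). These 3 genes were about as low relative to control as the targeted transcript, or lower. RAB31, a Rab GTPase of the endosome, had 6.29 FPKM with NEK7 siRNA, 31.9 FPKM with NEK6 siRNA and 28.0 FPKM with control siRNA. MAFF, a small MAF factor that pairs with NRF2, had 2.17 FPKM with NEK7 siRNA, 12.2 FPKM with NEK6 siRNA and 11.1 FPKM with control siRNA. DUSP3, a phosphatase of ERK and JNK, had 2.47 FPKM with NEK7 siRNA, 12.5 FPKM with NEK6 siRNA and 10.4 FPKM with control siRNA. For these 3 the control library lay slightly below the NEK6 siRNA library, so the distance to NEK6 siRNA was the larger one. FAM111A, a protease that restricts viral replication, had 2.57 FPKM with NEK7 siRNA, 9.72 FPKM with NEK6 siRNA and 9.48 FPKM with control siRNA. MPV17L, an MPV17-like membrane protein, had 0.307 FPKM with NEK7 siRNA, 3.89 FPKM with NEK6 siRNA and 5.04 FPKM with control siRNA. ITGB2-AS1 had 0.223 FPKM with NEK7 siRNA, 3.10 FPKM with NEK6 siRNA and 3.14 FPKM with control siRNA, and as an antisense gene it is uncertain, because it was not stated whether counting used the strand.

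Where the control library alone stood apart, 6 higher genes were named, ranked by the smaller of the NEK7 and NEK6 siRNA differences to control. MLEC, a lectin of the endoplasmic reticulum, had 53.1 FPKM with NEK7 siRNA and 35.3 FPKM with NEK6 siRNA, against 5.05 FPKM with control siRNA. MGAT5, which branches N-glycans in the Golgi, had 5.84 FPKM with NEK7 siRNA, 5.05 FPKM with NEK6 siRNA and 0.729 FPKM with control siRNA. PRXL2B, a prostaglandin F synthase, had 16.4 FPKM with NEK7 siRNA, 14.1 FPKM with NEK6 siRNA and 2.69 FPKM with control siRNA. In all 3 the NEK siRNA libraries lay together and the control library was several-fold below them. BCL2L2, the survival protein BCL-W, had 12.4 FPKM with NEK7 siRNA, 12.95 FPKM with NEK6 siRNA and 1.10 FPKM with control siRNA. With its read-through record BCL2L2-PABPN1 added, the ratio of counts per library total, NEK7 siRNA over control, was 9.13, against 11.2 for BCL2L2 by itself. MRNIP, a partner of the MRE11 repair complex, had 5.12 FPKM with NEK7 siRNA, 4.23 FPKM with NEK6 siRNA and 0.404 FPKM with control siRNA, but its exons overlap TBC1D9B, the sum of both records per library total had a ratio of NEK7 siRNA over control of 1.87, and its level is uncertain. SULT1A4, a phenol sulfotransferase, had 17.0 FPKM with NEK7 siRNA, 23.6 FPKM with NEK6 siRNA and 3.03 FPKM with control siRNA. It shares exons with SLX1B-SULT1A4, whose counts ran the other way, 2118 with NEK7 siRNA, 1940 with NEK6 siRNA and 4530 with control siRNA. The sum of both records, 4613, 5413 and 4943 counts, gave a ratio of NEK7 siRNA over control of 0.865, and the gene also has a near-identical copy in SULT1A3, so its difference is uncertain.

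The lower genes with the control library apart were led by TRIM56, a ubiquitin ligase of antiviral signalling, with 1.39 FPKM with NEK7 siRNA and 0.972 FPKM with NEK6 siRNA, against 13.9 FPKM with control siRNA. ZFP36, tristetraprolin, which speeds decay of AU-rich mRNAs, had 9.65 FPKM with NEK7 siRNA, 9.97 FPKM with NEK6 siRNA and 34.3 FPKM with control siRNA. LRRC8D, a subunit of the volume-regulated anion channel, had 2.72 FPKM with NEK7 siRNA, 2.23 FPKM with NEK6 siRNA and 11.9 FPKM with control siRNA. Against control, TRIM56 would count among the strongest losses with NEK7 siRNA, yet the NEK7 siRNA library lay 0.28 above the NEK6 siRNA library on the log2 scale. LASP1, an actin-binding adhesion protein, had 12.5 FPKM with NEK7 siRNA, 9.70 FPKM with NEK6 siRNA and 48.1 FPKM with control siRNA. UGT1A9, a glucuronosyltransferase, had 21 counts with NEK7 siRNA, 10 with NEK6 siRNA and 953 with control siRNA, but it shares its last exons with other UGT1A records, and over these records together the ratio of NEK7 siRNA over control was 0.602. GPRASP2, a sorting protein for receptors, had 0 counts with NEK7 siRNA, 6 with NEK6 siRNA and 526 with control siRNA, while ARMCX5-GPRASP2, which holds the same exons, had 315, 293 and 257 counts.

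**Figure D3:**
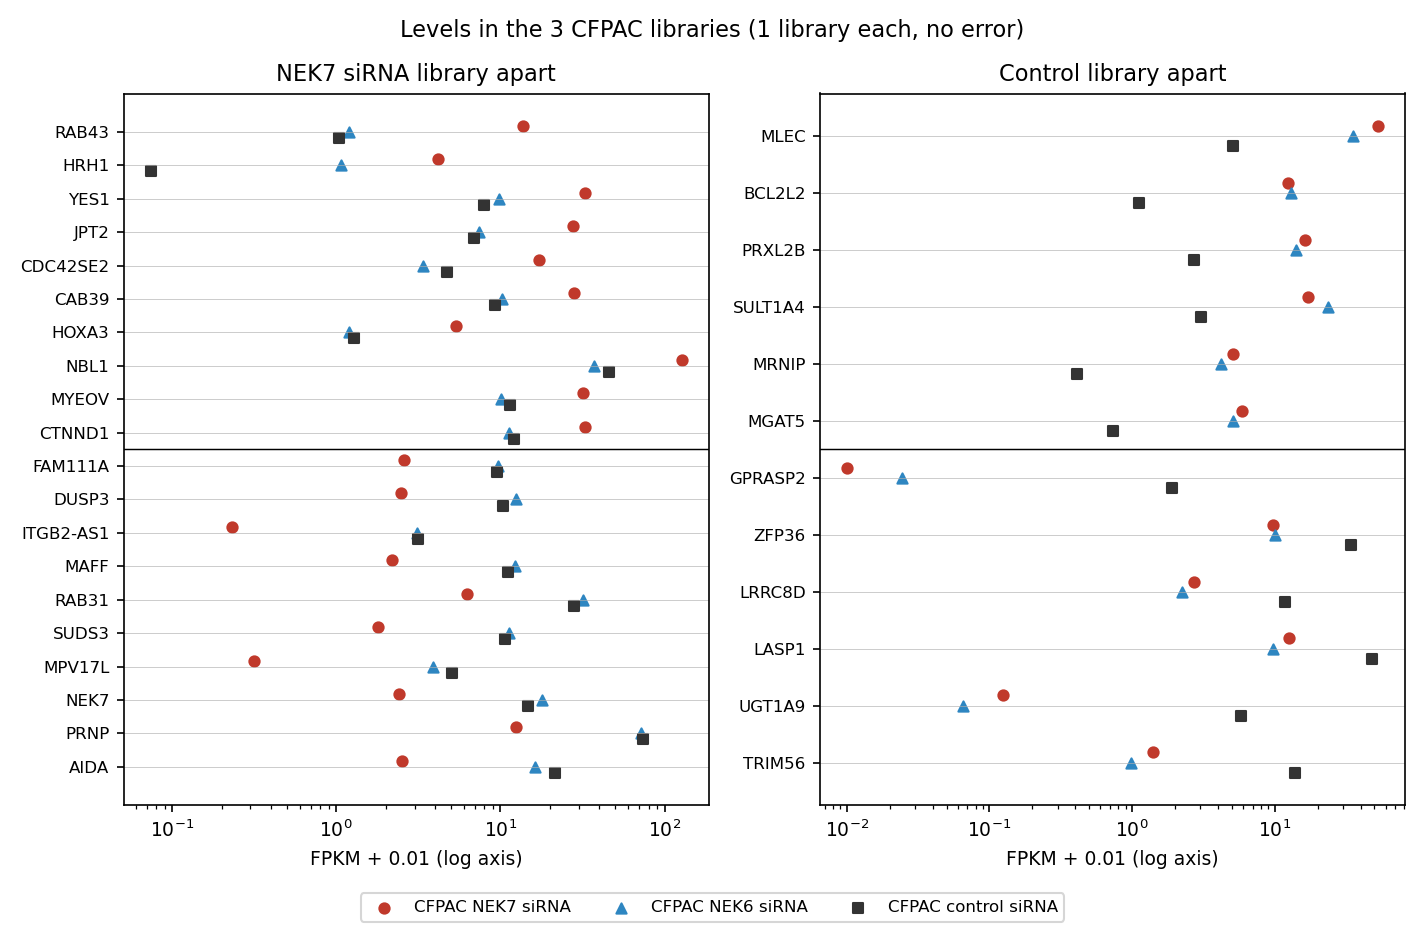
FPKM + 0.01 on a log axis for the genes named from each class, in CFPAC with NEK7 siRNA (red circles), NEK6 siRNA (blue triangles) and control siRNA (black squares); a line separates higher from lower genes. On the left the red circle stands away from both other symbols (JPT2 at 27.6 against 7.39 and 6.91 FPKM), which are themselves far apart for HRH1, and on the right the black square stands away from both others (MLEC at 53.1 and 35.3 against 5.05 FPKM).

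By size of the change in FPKM rather than by fold, the 5 largest gains with NEK7 siRNA were in highly expressed genes. IFITM1, an interferon-induced membrane protein, had 578 FPKM with NEK7 siRNA, 266 FPKM with NEK6 siRNA and 350 FPKM with control siRNA. TIMP2, an inhibitor of matrix metalloproteases, had 273 FPKM with NEK7 siRNA, 112 FPKM with NEK6 siRNA and 111 FPKM with control siRNA. SDC4, a heparan sulfate proteoglycan of focal adhesions, had 334 FPKM with NEK7 siRNA, 262 FPKM with NEK6 siRNA and 182 FPKM with control siRNA. For TIMP2 the NEK7 siRNA library alone was high, for SDC4 the NEK6 siRNA library lay midway, and IFITM1 counts are uncertain because its record overlaps IFITM2. CTSL, a lysosomal protease, had 331, 297 and 246 FPKM in the same order, and NBL1 was the fifth. The 5 largest losses were MT-ATP8, MT-ND4, MT-CO1, MT-ND3 and MT-CO2, all encoded by mitochondrial DNA; MT-ATP8 overlaps MT-ATP6 and MT-ND4 overlaps MT-ND4L, so those levels are uncertain. Mitochondrially encoded genes took 15.2% of counts with NEK7 siRNA, 15.5% with NEK6 siRNA and 17.9% with control siRNA in CFPAC, and 11.4%, 13.6% and 11.8% in KP3. The 13 proteins of this genome were below 0 in 13 of 13 against control, where 44% of all members were, with a median difference of -0.24 with NEK7 siRNA and -0.22 with NEK6 siRNA, and of 0.02 between the NEK siRNA libraries.

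KP3 was used to ask which CFPAC differences were also seen in the other line. Of the members, 10924 had at least 1 FPKM in KP3 with NEK7 or control siRNA, among them 133 of the 180 higher and 130 of the 214 lower genes. Of these, 14 higher and 20 lower genes were at least 2-fold changed the same way in KP3, which was 10.5% and 15.4% of the CFPAC lists and 10.3% and 14.6% of the KP3 lists. In KP3, 1.24% of the 10924 genes were at least 2-fold higher and 1.25% at least 2-fold lower. Another 12 higher and 16 lower genes of CFPAC were at least 2-fold changed the other way in KP3. At 2-fold the opposite direction was thus nearly as frequent as the same one. Between 1.5-fold and 2-fold in KP3, 16 higher and 18 lower genes went the same way. The other way went 8 higher and 9 lower genes. Differences confined to CFPAC, with under 1.5-fold in KP3, were 83 higher (0.76%) and 67 lower (0.613%). They included 14 of the 29 higher and 26 of the 50 lower genes with NEK7 siRNA apart that passed the filter in KP3. For genes with the control apart these numbers were 37 of 57 higher and 9 of 27 lower. Most members were under 1.5-fold in KP3: over all 12679 the 5th and 95th percentiles of the KP3 difference were -0.54 and 0.54. Both percentiles lie inside the 1.5-fold line of 0.585. A difference under 1.5-fold in KP3 was thus less frequent among the genes changed in CFPAC than among the members at large. The percentiles include members below the filter in KP3, and the share over the 10924 genes alone was not taken.

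Genes of the class with NEK7 siRNA apart in both lines numbered 1 higher and 3 lower. MDM4, an inhibitor of p53, had 0.29 FPKM with NEK7 siRNA, 2.06 FPKM with NEK6 siRNA and 2.39 FPKM with control siRNA in CFPAC, and 0.482, 4.72 and 3.82 FPKM in KP3. SCAMP1, a carrier protein of secretory membranes, had 3.99 FPKM with NEK7 siRNA, 11.01 FPKM with NEK6 siRNA and 10.3 FPKM with control siRNA in CFPAC, and 3.06, 7.504 and 7.85 FPKM in KP3. GOLM2, a Golgi membrane protein, had 6.90 FPKM with NEK7 siRNA, 15.2 FPKM with NEK6 siRNA and 15.2 FPKM with control siRNA in CFPAC, and 6.56, 14.9 and 15.7 FPKM in KP3. In these 3 genes the NEK7 siRNA library was the lowest of its line, and the levels of SCAMP1 and GOLM2 were similar in both lines. NEK7 itself missed the class narrowly, with a KP3 difference to NEK6 siRNA of -0.98. The single higher record was the ribosomal pseudogene RPS26P19, with 378 counts with NEK7 siRNA, 16 with NEK6 siRNA and 4 with control siRNA in CFPAC and 460, 4 and 21 counts in KP3; as a near copy of RPS26 it is uncertain.

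Several of the genes with the NEK7 siRNA library apart in CFPAC were level in KP3. SUDS3 had 11.4 FPKM with NEK7 siRNA and 9.96 FPKM with control siRNA there, DUSP3 10.9 and 10.4 FPKM, and JPT2 11.01 and 11.6 FPKM. All 3 were expressed in KP3 at levels near or above those of the CFPAC control library. RAB31 was expressed far less in KP3, with 1.10 FPKM with NEK7 siRNA and 0.625 FPKM with control siRNA. MAFF was level between NEK7 siRNA and control in KP3, at 8.31 and 9.77 FPKM, while NEK6 siRNA gave 49.1 FPKM. HOXA3, HRH1 and YES1, also of the class with NEK7 siRNA apart in CFPAC, were not level in KP3. HOXA3 had 3.43 FPKM with NEK7 siRNA there, 2.70 FPKM with NEK6 siRNA and 0.790 FPKM with control siRNA. HRH1 had 2.19, 1.73 and 0.0491 FPKM in the same order, and YES1 had 16.1, 14.4 and 4.37 FPKM. In each of them the KP3 control library was the low one. Of the genes with the control library apart, SLC25A43, a mitochondrial carrier, had 4.73 FPKM with NEK7 siRNA, 5.99 FPKM with NEK6 siRNA and 16.03 FPKM with control siRNA in CFPAC, and 3.86, 3.90 and 3.64 FPKM in KP3. For this gene the CFPAC control was the one library of the 6 that departed from its line.

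Genes at least 2-fold changed in opposite directions included IGFBP3, which binds insulin-like growth factors, with 215 FPKM with NEK7 siRNA, 501 FPKM with NEK6 siRNA and 480 FPKM with control siRNA in CFPAC, against 286, 50.8 and 69.2 FPKM in KP3. PRNP, so low with NEK7 siRNA in CFPAC, had 46.6 FPKM with NEK7 siRNA, 19.4 FPKM with NEK6 siRNA and 18.9 FPKM with control siRNA in KP3. In both genes the NEK7 siRNA library stood apart in each line, but on opposite sides. TUBB2B, a beta-tubulin, and FAM111A also were lower in CFPAC and higher in KP3, with KP3 differences of 1.24 and 1.36. SZRD1 went the same way, with 1.54. For FAM111A the KP3 control library was low, with 1.40 FPKM, against 5.18 FPKM with NEK7 siRNA and 7.87 FPKM with NEK6 siRNA. MYEOV had 4.16 FPKM with NEK7 siRNA, 6.23 FPKM with NEK6 siRNA and 15.6 FPKM with control siRNA in KP3, so there the control library was the high one. BCL2L2 had 0.227 FPKM with NEK7 siRNA, 4.81 FPKM with NEK6 siRNA and 3.76 FPKM with control siRNA in KP3. The transcription factor ADNP, the claudin CLDN12 and the membrane protein PRRG1 were also higher in CFPAC and lower in KP3, with CFPAC differences of 1.43, 1.32 and 1.43 and KP3 differences of -1.21, -1.29 and -1.88. For ADNP and PRRG1 the KP3 control library was the high one, at 7.18 and 9.17 FPKM. There NEK7 siRNA gave 2.54 and 1.75 FPKM, and NEK6 siRNA 1.98 and 1.57 FPKM. CLDN12 shares exons with GTPBP10 and CDK14, so its level is uncertain.

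**Figure D4:**
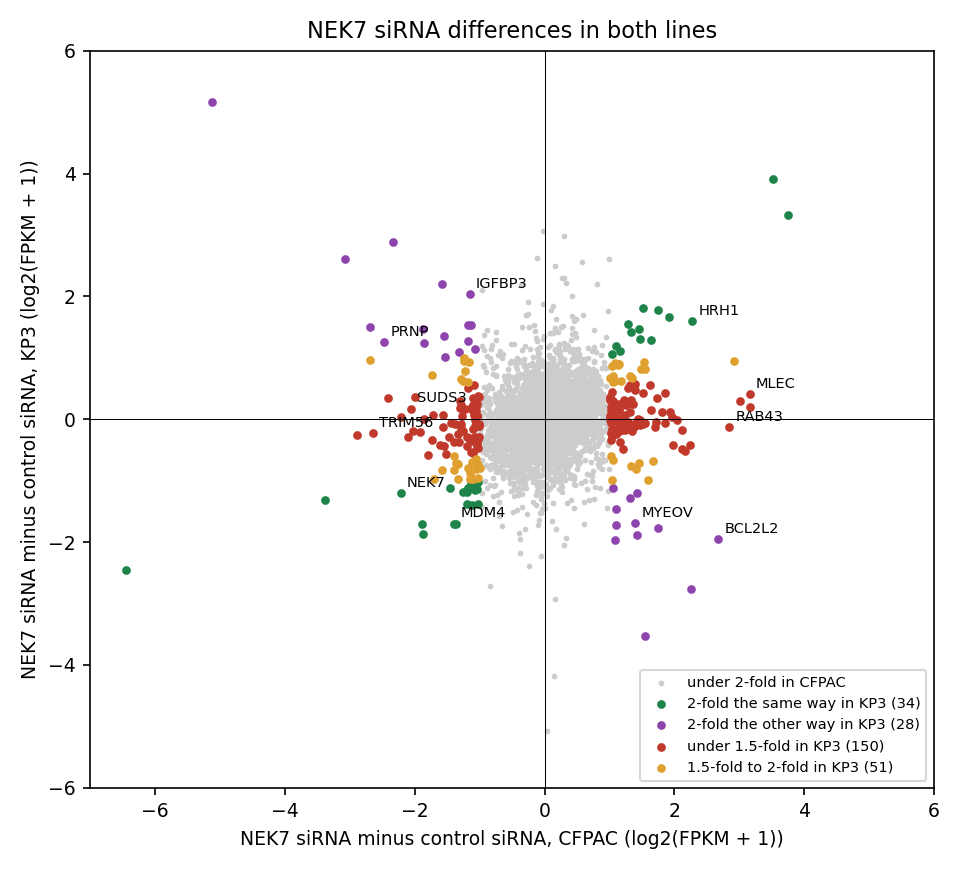
Difference of log2(FPKM + 1) between NEK7 siRNA and control siRNA in CFPAC (horizontal) and KP3 (vertical) for the 10924 members also over the filter in KP3. Of the coloured genes, at least 2-fold changed in CFPAC, 34 were 2-fold changed the same way in KP3, 28 the other way, 150 by under 1.5-fold and 51 in between.

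The genes with a 2-fold difference shared features that the rule did not use. Of those expressed in any KP3 library, 122 of 284 (43.0%) also spanned at least 2-fold among the 3 KP3 libraries, against 590 of 11077 members (5.33%). Among protein-coding members with at least 100 counts the shares were 39.9% and 4.03%. Many of the genes that differed in CFPAC thus also differed between libraries of another line. In each class the share was close to this, with 48.3% where NEK7 siRNA stood apart and 48.9% where the control did. Records that share same-strand exons with another gene made up 33.3% of the 2-fold genes and 17.4% of all members. Protein-coding genes made up 54.3% of them and 84.3% of all members. By type, 2-fold differences were found in 2.00% of protein-coding members, 31.6% of snoRNA, 27.8% of miRNA, 39.5% of misc_RNA and 50% of snRNA members, types that mostly lack a poly(A) tail. By level in the higher library, the share was 3.57% at 1 to 5 FPKM, 2.38% at 5 to 10, 2.83% at 10 to 50 and 3.25% at 50 FPKM or more, so 2-fold differences were not confined to genes of low level. The median length of the longest annotated 3' UTR was 2611 bases in the 117 higher coding genes with a 3' UTR and 1624.5 bases in the 94 lower ones, beside 1556.5 bases in all 10666. It was 1801.5 bases where NEK7 siRNA stood apart and 2481.5 bases where the control did.

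Gene lists were read against all members, of which 56% were above 0. At 1.5-fold, 5% of all members were higher and 5.19% lower. Of the 17 inflammasome and pyroptosis genes among the members, 13 were above 0 with a median of 0.08. On the log2(FPKM + 1) scale 0 reached 1.5-fold either way, where 10.2% of all members did. That scale understates the change of genes near the filter, such as NLRP3 and GSDMC. NLRP3, the sensor that NEK7 binds, had 0.724 FPKM with NEK7 siRNA, 1.16 FPKM with NEK6 siRNA and 1.13 FPKM with control siRNA. Caspase-1, CASP1, had 4.45 FPKM with NEK7 siRNA, 5.34 FPKM with NEK6 siRNA and 3.22 FPKM with control siRNA. The adaptor PYCARD had 11.03, 8.99 and 9.84 FPKM in the same order. The parts of the complex were therefore present in CFPAC in the 3 libraries, with NLRP3 near the filter. The pore former GSDMD had 6.24 FPKM with NEK7 siRNA, 6.23 FPKM with NEK6 siRNA and 5.12 FPKM with control siRNA. Of the cytokines, IL1B had 16.2 FPKM with NEK7 siRNA, 27.2 FPKM with NEK6 siRNA and 19.7 FPKM with control siRNA, IL18 had 16.7, 14.7 and 13.6 FPKM, and IL1A had 29.7, 57.5 and 37.2 FPKM. For IL1B and IL1A the NEK6 siRNA library was the highest and the NEK7 siRNA library the lowest of the 3.

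Among 20 NF-kB targets and cytokines the median was -0.02, with 2 at least 1.5-fold higher and 0 lower. CSF1, the macrophage growth factor, had 26.2 FPKM with NEK7 siRNA, 13.5 FPKM with NEK6 siRNA and 14.3 FPKM with control siRNA. The neutrophil chemokine CXCL3 had 5.24 FPKM with NEK7 siRNA, 4.71 FPKM with NEK6 siRNA and 2.57 FPKM with control siRNA. CSF1 was thus high with NEK7 siRNA alone and CXCL3 low with control alone. Of 41 interferon-stimulated genes, 2 were at least 1.5-fold higher and 2 lower (4.88% each), near the shares of all members, with a median of 0.10. CXCL10, a T cell chemokine, had 7.36 FPKM with NEK7 siRNA, 18.9 FPKM with NEK6 siRNA and 18.5 FPKM with control siRNA, and XAF1, which antagonises XIAP, had 6.85, 12.7 and 15.9 FPKM. IFI27 had 75.3 FPKM with NEK7 siRNA, 78.5 FPKM with NEK6 siRNA and 32.8 FPKM with control siRNA. The interferon-induced genes thus lay on both sides of 0. Antigen presentation genes had 16 of 21 above 0, a median of 0.10 and 0 past 1.5-fold.

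For the mitotic role of NEK7, 38 genes of mitosis and G2/M had a median of 0.04. Of these, 4 were at least 1.5-fold lower (10.5%) and 0 higher, beside 5.19% and 5% of all members. AURKA, a spindle pole kinase, had 23.1 FPKM with NEK7 siRNA, 35.4 FPKM with NEK6 siRNA and 39.2 FPKM with control siRNA. CDC25B, the phosphatase that starts mitosis, had 21.5, 31.2 and 35.6 FPKM in the same order. ANLN, the anillin of the cleavage furrow, had 24.3, 34.9 and 38.4 FPKM. In these 3 genes the NEK7 siRNA library was the lowest and the NEK6 siRNA library lay near control, whereas BIRC5, survivin, had 2.06 FPKM with NEK7 siRNA, 2.62 FPKM with NEK6 siRNA and 4.43 FPKM with control siRNA. Of 34 replication genes, RRM2, a subunit of ribonucleotide reductase, was the one at least 1.5-fold lower, with 7.47 FPKM with NEK7 siRNA, 5.36 FPKM with NEK6 siRNA and 16.9 FPKM with control siRNA. In the centrosome and spindle pole list, 2 of 31 were at least 1.5-fold higher, STIL, needed for centriole duplication, with 4.59 FPKM with NEK7 siRNA, 4.74 FPKM with NEK6 siRNA and 1.78 FPKM with control siRNA, and the microtubule protein EML4 with 11.5, 10.3 and 6.33 FPKM. Both were low with control siRNA alone.

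The 25 genes of the BCL2 family and apoptosis had a median of 0.12. Of these, 4 were at least 1.5-fold higher (16%) and 3 lower (12%), beside 5% and 5.19% of all members. BCL2L11, the death promoter BIM, had 4.15 FPKM with NEK7 siRNA, 0.399 FPKM with NEK6 siRNA and 1.17 FPKM with control siRNA. Its relative BMF had 1.73, 0.673 and 0.67 FPKM, and BAD, another BH3-only protein, had 7.43, 13.8 and 16.8 FPKM. The caspase inhibitor XIAP had 5.03 FPKM with NEK7 siRNA, 8.40 FPKM with NEK6 siRNA and 1.43 FPKM with control siRNA. Death promoters were thus found on both sides, BCL2L11 and BMF above and BAD below. The 28 p53 targets and regulators had a median of -0.07, with MDM4 as the one gene past 1.5-fold.

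Single genes of the receptor and early response lists differed between NEK7 and NEK6 siRNA, while others had similar values with both. Of 11 genes of the EGF receptor family, 2 were at least 1.5-fold lower with NEK7 siRNA (5.19% of all members). With NEK6 siRNA 2 were at least 1.5-fold higher (3.23% of all members). The medians were 0.04 with NEK7 siRNA and 0.37 with NEK6 siRNA against the shared control. EREG, a ligand of the receptor, had 8.03 FPKM with NEK7 siRNA, 29.5 FPKM with NEK6 siRNA and 14.4 FPKM with control siRNA. The feedback inhibitor ERRFI1 had 46.7, 95.2 and 79.4 FPKM in the same order, and the ligand TGFA differed from control by -0.43 with NEK7 siRNA and 0.35 with NEK6 siRNA on the log2 scale. In these 3 genes the NEK7 siRNA library was the lowest and the NEK6 siRNA library the highest, whereas the protease ADAM17 differed from control by 0.37 with NEK7 siRNA and 0.47 with NEK6 siRNA. The median of the list for NEK7 siRNA minus NEK6 siRNA was -0.12, and that of the immediate early genes was -0.11. Among 27 immediate early genes, 3 were at least 1.5-fold lower (11.1%) and 1 higher (3.70%), with a median of 0.00. Of all members 5.19% were lower and 5% higher. FOSL1, an AP-1 subunit, had 16.5 FPKM with NEK7 siRNA, 28.3 FPKM with NEK6 siRNA and 28.7 FPKM with control siRNA, and the zinc finger factor EGR1 had 3.96, 7.83 and 6.74 FPKM. Both were also lower with NEK7 siRNA in KP3, by differences of -1.08 and -0.92.

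Metabolic and ribosomal lists lay mostly below 0, where 44% of all members were. Of 34 hypoxia and glycolysis genes 28 were below 0, with a median of -0.17 with NEK7 siRNA and -0.01 with NEK6 siRNA. ALDOA, the glycolytic aldolase, had 114 FPKM with NEK7 siRNA, 193 FPKM with NEK6 siRNA and 236 FPKM with control siRNA, and LDHA, lactate dehydrogenase, had 197, 258 and 280 FPKM. Cytoplasmic ribosomal protein genes were below 0 in 65 of 76, with medians of -0.17 with NEK7 siRNA and -0.04 with NEK6 siRNA. At least 1.5-fold lower were 4 of them (5.26%), near the 5.19% of all members, led by RPS14 with 62.0, 117 and 127 FPKM. Nuclear genes of the respiratory chain were below 0 in 34 of 52, with medians of -0.23 with NEK7 siRNA and -0.06 with NEK6 siRNA. The complex I subunit NDUFA13 had 7.57 FPKM with NEK7 siRNA, 18.2 FPKM with NEK6 siRNA and 15.0 FPKM with control siRNA, and COX6B1 of complex IV had 45.9, 75.4 and 77.2 FPKM. The shifts of these 3 lists were small, under 0.3 on the log2 scale. For NEK7 siRNA minus NEK6 siRNA the medians were -0.13 for hypoxia and glycolysis, -0.14 for cytoplasmic ribosomal proteins and -0.089 for nuclear genes of the respiratory chain, and whether the siRNAs differ was not tested. Cholesterol and fatty acid synthesis genes had 24 of 32 below 0 and medians of -0.14 with NEK7 siRNA and -0.09 with NEK6 siRNA. IDI1, an enzyme of isoprenoid synthesis, had 5.37 FPKM with NEK7 siRNA, 2.28 FPKM with NEK6 siRNA and 9.71 FPKM with control siRNA.

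Epithelial junction genes lay on the other side, with 19 of 22 above 0 and medians of 0.23 with NEK7 siRNA and 0.13 with NEK6 siRNA. At least 1.5-fold higher were 3 of them (13.6%), beside 5% of all members. Besides CTNND1 these were the claudin CLDN7, with 38.7 FPKM with NEK7 siRNA, 25.1 FPKM with NEK6 siRNA and 23.4 FPKM with control siRNA, and the desmosomal cadherin DSG2, with 85.1, 73.0 and 54.1 FPKM. In the mesenchymal transition list of 17 genes the median was -0.19 with NEK7 siRNA and 0.12 with NEK6 siRNA. TGFBR1, a receptor of TGF-beta, had 0.76 FPKM with NEK7 siRNA, 3.04 FPKM with NEK6 siRNA and 2.02 FPKM with control siRNA, while the matrix protease MMP14 had 27.4, 17.9 and 17.8 FPKM. Of 24 integrin, laminin and collagen genes, 2 were at least 1.5-fold higher: COL5A2 with 6.26 FPKM with NEK7 siRNA, 2.18 FPKM with NEK6 siRNA and 2.43 FPKM with control siRNA, and the integrin ITGA6 with 56.2, 64.6 and 33.0 FPKM. COL5A2 was high with NEK7 siRNA alone, and ITGA6 low with control alone. Among 47 actin and focal adhesion genes, CORO1C, a coronin, had 29.1 FPKM with NEK7 siRNA, 27.4 FPKM with NEK6 siRNA and 8.09 FPKM with control siRNA, and the tropomyosin TPM4 had 18.6, 20.01 and 7.15 FPKM, so that the 3 genes past 1.5-fold, LASP1 included, all had the control library apart. In the WNT pathway 18 of 23 genes were above 0, with a median of 0.14, and APC, the scaffold of beta-catenin destruction, had 1.86 FPKM with NEK7 siRNA, 0.412 FPKM with NEK6 siRNA and 0.306 FPKM with control siRNA.

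In the unfolded protein response list, 23 of 32 genes were above 0 with a median of 0.14, while ATF4, the stress transcription factor, had 11.5 FPKM with NEK7 siRNA, 10.5 FPKM with NEK6 siRNA and 22.8 FPKM with control siRNA. In KP3 ATF4 stood at 25.2, 20.3 and 10.97 FPKM, so the control library was high in CFPAC and low in KP3. Of 34 proteasome subunits 2 (5.88%) were at least 1.5-fold higher, near the 5% of all members. They were led by the activator PSME3 with 19.4 FPKM with NEK7 siRNA, 17.8 FPKM with NEK6 siRNA and 6.57 FPKM with control siRNA. Transcripts of RNA polymerases I and III set the NEK6 siRNA library apart: over 9 members the median difference to control was 0.29 with NEK7 siRNA and 2.89 with NEK6 siRNA. RN7SL1, an RNA of the signal recognition particle, had 33.8 FPKM with NEK7 siRNA, 107 FPKM with NEK6 siRNA and 17.0 FPKM with control siRNA, and with near-identical copies and no poly(A) tail its level is uncertain. Heat shock proteins, splicing factors, duct secretion genes and S100 proteins with annexins had 0 members past 1.5-fold and medians from -0.08 to 0.06. This holds on the log2(FPKM + 1) scale, which understates changes at low levels. S100A14 had 2.58 FPKM with NEK7 siRNA and 1.61 FPKM with control siRNA, and the duct gene CA2 had 3.82 and 5.79 FPKM. The NRF2, lysosome, small RNA pathway and mucin lists had medians from -0.01 to 0.10 and at most 2 members past 1.5-fold.

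**Figure D5:**
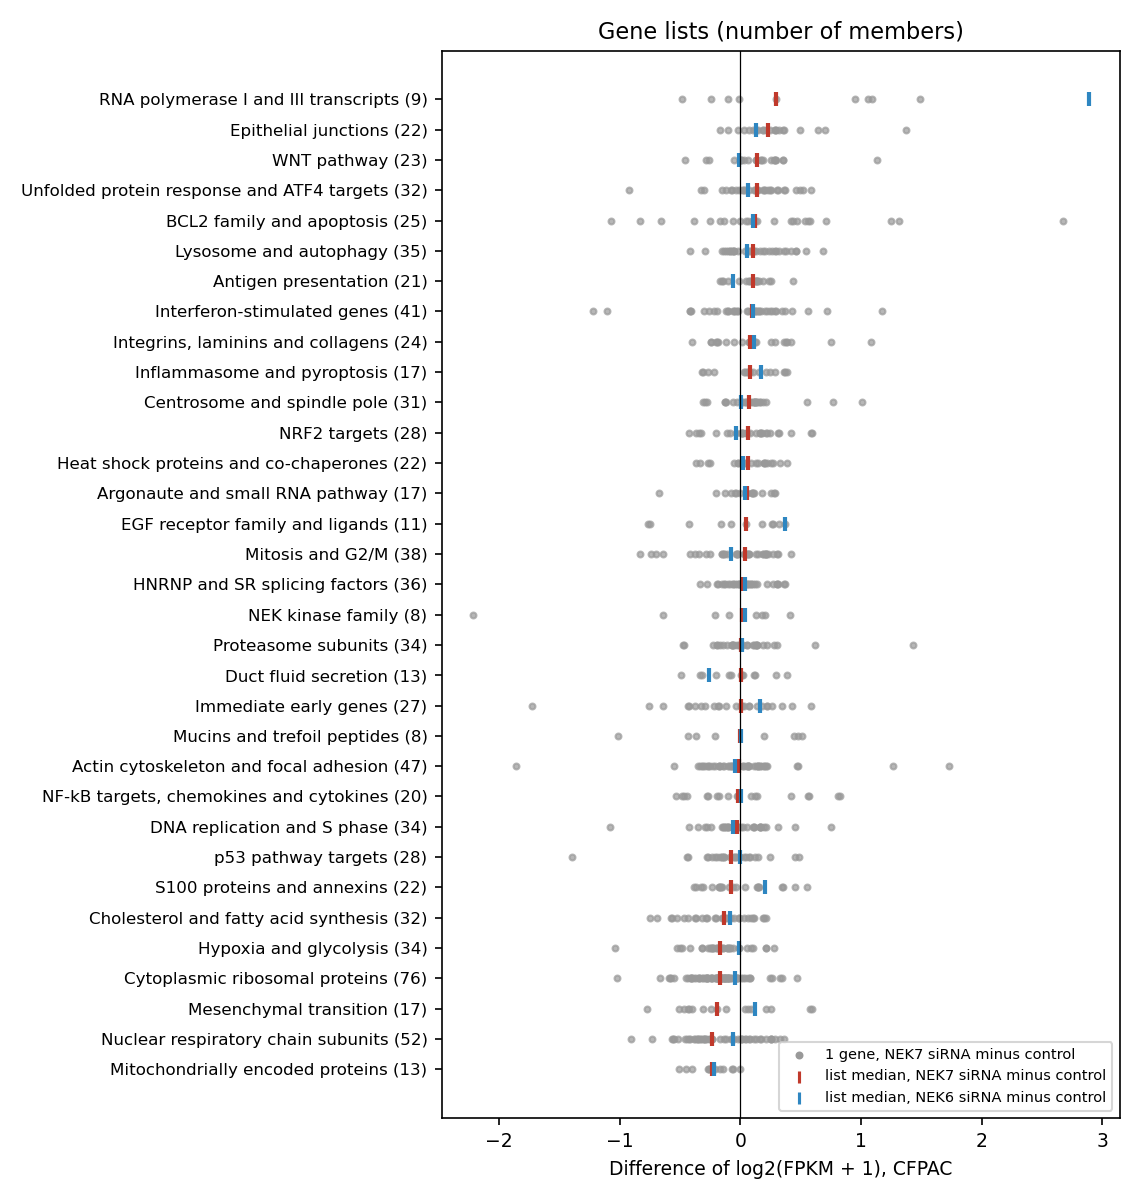
Difference of log2(FPKM + 1) between NEK7 siRNA and control siRNA in CFPAC for each member of the gene lists (grey points), with the list median for NEK7 siRNA (red bar) and for NEK6 siRNA over the same control (blue bar). Both medians lie within 0.4 of 0 in every list shown except the RNA polymerase I and III transcripts, where the NEK6 siRNA median is 2.89.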

How the data were processed

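CFPAC and KP3 cells were profiled by RNA-seq after NEK7, NEK6 or control siRNA, 1 library each. The authors deposited a count per gene and library, as whole numbers without normalization, and the FPKM of the same genes, per the file headers. The submitters' processing notes name the tools StringTie 1.3.4d, HISAT2 2.0.4, edgeR and cutadapt 1.9 without roles. Build and strand setting are not given in the sources used here. The ratio of count to FPKM per library total differed by under 0.05 log2 between both CFPAC libraries in 99.98% of 13134 genes with at least 100 counts, so the gene lengths behind FPKM were the same in both.

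Differences were taken of log2(FPKM + 1). No test was run, since each condition has 1 library. Intervals of count ratios are exact (Clopper-Pearson) at 95% and cover counting error alone. Library totals were 59478910 to 66067379 counts. Gene types, same-strand exon overlap and 3' UTR lengths came from GENCODE release 29, matched by gene id. The members, the 34 gene lists and the rule for named genes were chosen with earlier results of these data known. The rule took NEK7, NEK6, NEK9 and inflammasome genes, 10 and 10 genes with NEK7 siRNA apart, 6 and 6 with control apart, 8 and 8 confined to CFPAC, up to 6 and 6 shared by both lines, 5 and 5 opposite between lines, the 5 largest gains and losses of FPKM, genes at the thresholds, and up to 4 members a list, with at least 100 counts. RPS26P19, the cell type markers and overlapping records were named after their values were seen. Some genes that the rule took are not reported here. Of the replication-dependent histone list 1 record matched, and it is not described. Alternatives were other pseudocounts, filters, thresholds, comparators and scalings (TMM by edgeR 4.0.16, size factors by DESeq2 1.42.0, R 4.3.3). Assignment to the class with NEK7 siRNA apart was checked on simulated counts, with known fold changes in the CFPAC NEK7 siRNA library alone. The simulation held counting error only, and the other classes were not checked in this way. Python 3.11.15, numpy 2.4.6, pandas 2.3.3, scipy 1.17.1 and matplotlib 3.10.9 were used.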

Additional observations from a re-analysis of the deposited data

Results flagged for a closer look

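For 13 of the named genes the difference between NEK7 siRNA and control siRNA was at least 1.5-fold one way in CFPAC and at least 1.5-fold the other way in KP3. With 1 library a condition the difference between the lines was not tested. Values are the CFPAC difference minus the KP3 difference on the log2(FPKM + 1) scale. Genes higher in CFPAC and lower in KP3 were BCL2L2 with 4.63, PRRG1 with 3.31, MYEOV with 3.08, ADNP with 2.64, CLDN12 with 2.61 and CDC42SE2 with 2.35. Lower in CFPAC and higher in KP3 were PRNP with -3.73, AIDA with -3.66, IGFBP3 with -3.19, TUBB2B with -3.09, FAM111A with -2.92, SZRD1 with -2.73 and ATF4 with -2.06. For BCL2L2, PRRG1, CLDN12, SZRD1 and ATF4 the CFPAC control library lay at least 2-fold from both NEK siRNA libraries, or within 0.1 of that line, and those lay within 1.5-fold of each other. Beside them, PRNP, IGFBP3, TUBB2B, FAM111A, AIDA, MYEOV and CDC42SE2 had the CFPAC NEK7 siRNA library at least 2-fold from both others. In KP3, both NEK siRNA libraries lay at least 1.5-fold from control the same way for FAM111A, AIDA, ATF4, ADNP, PRRG1 and MYEOV. This was not so for the other flagged genes.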

How the results depend on the processing

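Order of counts: higher and lower against control (180 and 214 as reported), NEK7 siRNA apart (51 and 72), control apart (67 and 61) and CFPAC alone (83 and 67), each as higher then lower. With a pseudocount of 0.1 FPKM they were 405, 446, 140, 197, 142, 116, 159 and 130. With a filter of 5 FPKM they were 87, 92, 22, 37, 41, 25, 50 and 37. With a threshold of 1.5-fold they were 634, 658, 203, 261, 224, 228, 359 and 328. Among protein-coding genes the counts that moved by over 1.5 times were 118, 96, 30 and 38, then 23 lower with control apart and 39 lower in CFPAC alone. With the NEK6 siRNA library as comparator 140 were lower, and higher genes made up 55.7% of the calls, against 45.7% as reported. With the mean of both comparators 98 were higher and 124 lower. TMM scaling gave 109 lower with NEK7 siRNA apart, and library totals or DESeq2 size factors gave 104 higher with control apart. Chosen after seeing the data, a minimum of 100 counts left 138 lower genes and 34 lower with control apart. Leaving out genes that share same-strand exons left 118 higher, 30 higher with NEK7 siRNA apart, 39 higher and 32 lower with control apart, and 53 higher in CFPAC alone. Leaving out genes that span 2-fold among the KP3 libraries left 33 and 47 with NEK7 siRNA apart and 43 and 40 with control apart. No filter and centring on the median kept the 8 counts within 1.5 times. The causes were not tested, except that fewer genes enter under filters.

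The NEK7 difference of -2.22 was -2.58 with a pseudocount of 0.1, -2.55 with library totals, -2.60 with TMM, -2.58 with size factors, -2.48 against NEK6 siRNA and -2.35 against the mean comparator. Of the named genes at least 2-fold from control, the sign of 16 turned against NEK6 siRNA: BCL2L2 to -0.053, SULT1A4 to -0.45, PRRG1 to -0.24, TRIM56 to 0.28, UGT1A9 to 0.079, LASP1 to 0.34, LRRC8D to 0.20, SZRD1 to 0.074, IFI27 to -0.057, RRM2 to 0.41, STIL to -0.039, XIAP to -0.64, TPM4 to -0.10, RMRP to -1.57, RPPH1 to -1.52 and RN7SL2 to -1.98. Of the same genes RMRP turned to -0.043, RPPH1 to -0.22 and RN7SL2 to -0.46 against the mean comparator. Differences under 2-fold turned too, among them IDI1 to 0.96, RN7SL1 to -1.63, ITGA6 to -0.20, CASP1 to -0.22 and NEK6 to 1.58 against NEK6 siRNA. List medians that moved by at least 0.1 against NEK6 siRNA were inflammasome and pyroptosis at -0.039, interferon-stimulated genes at -0.044, p53 pathway targets at 0.068, BCL2 family and apoptosis at -0.027, cholesterol and fatty acid synthesis at -0.017, nuclear respiratory chain subunits at -0.089, mitochondrially encoded proteins at 0.023, immediate early genes at -0.11, EGF receptor family and ligands at -0.12, epithelial junctions at 0.12, duct fluid secretion at 0.12 and RNA polymerase I and III transcripts at -1.98. Against the mean comparator they were mitochondrially encoded proteins at -0.10, immediate early genes at -0.13 and RNA polymerase I and III transcripts at -0.46. No other setting moved a list median by 0.1.

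No paired analysis was possible because no condition has a second library, and leaving out a replicate was likewise not possible. Counting intervals were wide for named genes with few counts in 1 library, such as HRH1 (43.4 to 99.6) and UGT1A9 (0.0126 to 0.0314) over control. The spread between cultures, which was not measured, limits every statement.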
